A study of Mus musculus with 13 samples.

Results

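Open chromatin at 10 genes of the neuronal lineage was examined in 13 ATAC-seq libraries of cultured mouse oligodendrocyte precursor cells (OPCs). The 10 genes, chosen by name, were Neurog1, Neurog2, Neurod1, Neurod2, Neurod6, Tbr1, Eomes, Rbfox3, Dcx and Tubb3, out of 21951 protein-coding genes of the GENCODE M21 annotation, and all 10 were found in it. ATAC-seq marks accessible DNA by the insertion of the Tn5 transposase, and each library was deposited as a list of broad peaks with the fold of each peak over the background modelled by the peak caller. A promoter peak was any called peak within 2 kb upstream to 1 kb downstream of any annotated transcription start of the gene. Because a fold is set within 1 library, each is also given as a percentile, the rank of the peak's fold among all peaks of its own list, where 100 is the highest.

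The cultures were grown from OPCs immunopanned with an antibody to PDGFRα from AMGFAP-Cre;K27M litters at P5 to P7 and kept in proliferation medium, without differentiation. The K27M cells carry the H3.3 K27M oncohistone, a lysine-to-methionine change of a histone H3 variant, from a conditional allele switched on by Cre from a human GFAP promoter (hGFAP-Cre in the study's methods). The control cells came from littermates. Brain tissue was pooled by region and genotype, so that a library stands for a pool of animals and not for 1 animal. The groups were control brainstem (3 libraries), K27M brainstem (3), control dorsal telencephalon (3, labelled cortex, and including corpus callosum and hippocampus) and K27M dorsal telencephalon (4). The libraries are named here by genotype, region and culture number (41, 51, 59 or 61).

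Neurog1 and Neurog2 are proneural basic helix-loop-helix (bHLH) factors that commit progenitors to a neuronal fate, and Neurod1, Neurod2 and Neurod6 are bHLH factors that act after them in differentiating neurons. Such factors bind the E-box, the short motif CANNTG. Eomes (also named Tbr2) and Tbr1 are T-box factors of intermediate progenitors and of young excitatory neurons of the cortex. Dcx and Tubb3 encode a microtubule-associated protein and a β-tubulin of young neurons, and Rbfox3 encodes the splicing regulator NeuN of mature neurons. In cells outside the neuronal lineage, promoters of developmental transcription factors such as these are commonly held by Polycomb proteins, whose mark, H3K27 trimethylation, is reduced by H3.3 K27M.

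The peak lists held 16879 to 52466 peaks. Of 7 markers of OPCs, 6 had a promoter peak in all 13 libraries, and Cspg4 had one in 3. No promoter peak was called in any library for Cx3cr1 and Csf1r, which define microglia, or for Cdh5 and Tek of endothelial cells. Of the same lists, P2ry12 had one in 12, Tmem119 in 4 and Aif1 in 2 libraries, and Kdr in 10, Cldn5 in 3 and Pecam1 in 1. Among astrocyte markers, Gfap had one in 13, S100b in 12, Slc1a3 in 11, Aqp4 in 8 and Aldh1l1 in 4. The part of other cells in the values below was not tested. In bulk libraries fewer cells with an open site and less opening per cell cannot be told apart. The control telencephalon library of culture 59 stood apart with the shortest list, 16879 peaks.

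The sequences at which the results turn are shown first. The stretches below end next to the outermost annotated start of each gene, except that of Neurod1, which was moved upstream past an exon of Cerkl. They were read from GRCm38.p6, the assembly of mm10, on the strand of the gene, 5′ to 3′, with E-boxes in capitals. Neurog2 and Tubb3 were the genes with a peak in every library, Neurod1 had more K27M than control libraries, Neurod2 and Neurod6 were nearly without promoter peaks, and Dcx had promoter peaks in brainstem libraries.
Neurog2, chr3:127632885-127633134, plus strand: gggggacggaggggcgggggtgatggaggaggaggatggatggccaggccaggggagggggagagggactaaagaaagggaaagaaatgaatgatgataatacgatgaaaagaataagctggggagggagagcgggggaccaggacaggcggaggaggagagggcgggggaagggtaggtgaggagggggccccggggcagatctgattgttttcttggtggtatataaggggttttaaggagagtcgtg
Tubb3, chr8:123411174-123411423, plus strand: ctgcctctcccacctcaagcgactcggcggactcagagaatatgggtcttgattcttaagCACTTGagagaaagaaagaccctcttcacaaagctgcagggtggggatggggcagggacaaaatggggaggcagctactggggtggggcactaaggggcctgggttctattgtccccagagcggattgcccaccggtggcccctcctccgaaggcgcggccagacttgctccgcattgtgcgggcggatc
Neurod1, chr2:79456786-79457035, minus strand: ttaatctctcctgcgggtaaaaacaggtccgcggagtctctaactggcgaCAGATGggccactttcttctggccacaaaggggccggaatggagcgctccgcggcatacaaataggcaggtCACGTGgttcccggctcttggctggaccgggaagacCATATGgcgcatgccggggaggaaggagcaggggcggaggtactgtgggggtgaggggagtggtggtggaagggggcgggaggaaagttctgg
Neurod2, chr11:98329649-98329898, minus strand: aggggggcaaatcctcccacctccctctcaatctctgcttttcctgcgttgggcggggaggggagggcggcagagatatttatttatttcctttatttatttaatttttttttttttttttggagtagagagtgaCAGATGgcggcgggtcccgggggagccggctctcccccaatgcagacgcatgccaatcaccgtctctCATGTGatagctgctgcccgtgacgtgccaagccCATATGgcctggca
Neurod6, chr6:55681264-55681513, minus strand: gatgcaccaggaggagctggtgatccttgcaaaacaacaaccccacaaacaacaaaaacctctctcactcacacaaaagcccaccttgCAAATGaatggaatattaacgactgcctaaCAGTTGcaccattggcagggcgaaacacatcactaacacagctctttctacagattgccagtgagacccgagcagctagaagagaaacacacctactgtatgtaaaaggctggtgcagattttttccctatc
Dcx, chrX:143933312-143933561, minus strand: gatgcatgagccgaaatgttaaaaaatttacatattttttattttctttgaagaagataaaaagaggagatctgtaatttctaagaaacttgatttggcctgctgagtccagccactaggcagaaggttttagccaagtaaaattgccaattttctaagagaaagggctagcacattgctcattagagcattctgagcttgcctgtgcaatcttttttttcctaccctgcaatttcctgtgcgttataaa

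A called peak overlapped the printed stretch in 13 libraries for Tubb3 and in 9 each for Neurog2 and Neurod1. For Neurod6 and Dcx it was 1 library each, and for Neurod2 it was 0. The Neurod1 stretch held 3 E-boxes and 15 CpG dinucleotides, the Neurod2 stretch 3 and 11, the Tubb3 stretch 1 and 11, and the Neurog2 stretch 0 and 8. The Neurod6 stretch held 2 E-boxes and 3 CpG, and the Dcx stretch 0 and 2, with the lowest GC content of the 6, 36.4%. In the RefSeq table of 32851 promoters (250 bases before to 50 after a start), in which all 10 genes matched, the promoter of Neurog1 had 32 CpG and those of Neurod1 and Tubb3 had 26 each. The median was 7 over all promoters and 10 over the 10 genes. CANNTG, whose pattern reads the same on both strands, was present in 6 of the 10 promoters and in 72.3% of all, so it did not set them apart. Within it, CAGATG, searched on both strands, was present in 1 of these 10 RefSeq promoters (Neurod2) and in 17.2% of all. The CAGATG in the printed Neurod1 stretch lies upstream of its RefSeq promoter and was not counted.

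The binding site of REST, the repressor of neuronal genes outside neurons, was searched as CAGCACC and GGACAG with 2 bases between, on both strands. None of the 10 genes had it in a promoter window of 2 kb upstream to 1 kb downstream, and 0.488% of 21938 coding genes did. That says only that these letters are not in these windows.

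All 10 genes had a promoter peak in at least 1 library, but few had one throughout. Neurog2 and Tubb3 had one in all 13, Neurog1 in 12, Rbfox3 in 11, Tbr1 in 10, Neurod1 in 9, Eomes in 7, Dcx in 3, and Neurod2 and Neurod6 in 1 each. Thus 2 of 10 were found in all 13 libraries, against 42% of all coding genes, and 0 of 10 in none, against 30.6%. Another 3 of 10 were found in 1 to 4 libraries, against 7.95% of coding genes. As a description of a list of 10, fewer were called throughout and more were called now and then than among all coding genes.

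**Figure D1:**
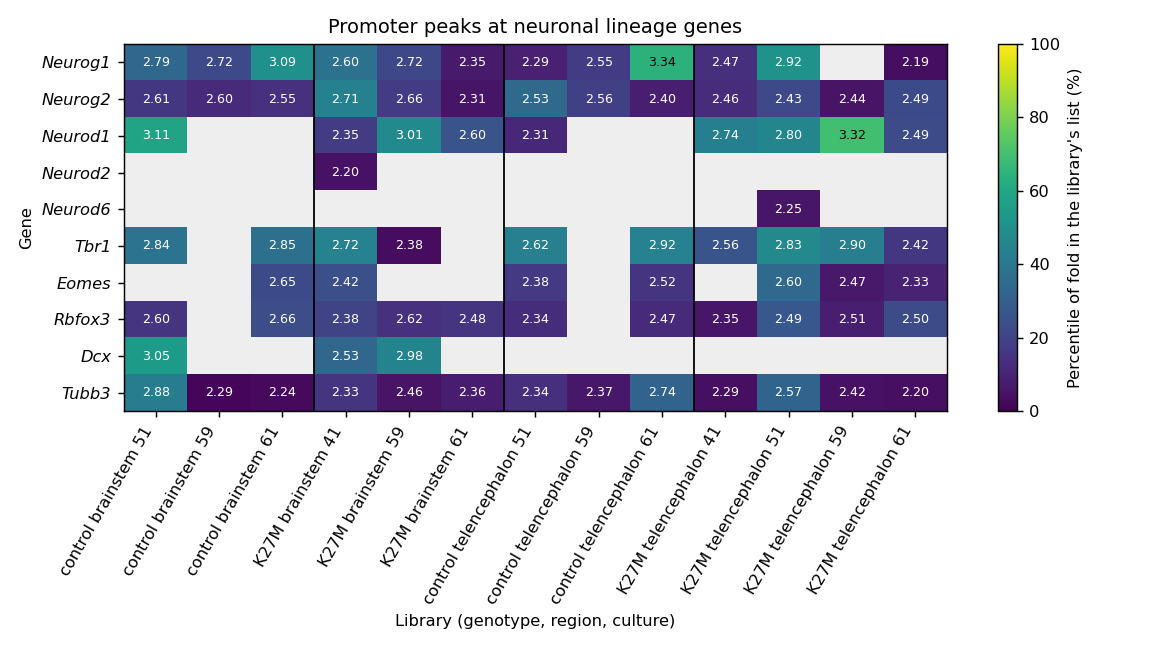
Promoter peaks at the 10 genes (rows) in the 13 libraries (columns, separated by group). Numbers are the fold of the strongest promoter peak, colour is its percentile among all peaks of that library, and grey means that no peak was called. Neurog2 and Tubb3 are filled in every column, while Neurod2 and Neurod6 have 1 filled cell each.

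The promoter peaks ranked low against all coding genes with one. Over the 10 genes the median of the mean percentile was 18.3, and the median over all coding genes with a promoter peak was 60.8. For coding genes found in 13, 9 to 12, 5 to 8 and 1 to 4 libraries it was 75.7, 45.3, 29.4 and 21.3. Among coding genes found in equally many libraries, Dcx ranked above 90.5%, Neurod1 above 55.1% and Tbr1 above 48.9%. Eomes ranked above 24.6%, Neurog1 15.4%, Neurod6 13.5%, Neurod2 9.97% and Rbfox3 9.44%, with Neurog2 and Tubb3 given below. Of 130 pairs of gene and library, 80 had a promoter peak, where a library had one at 58.4% of all coding genes on average. Of the 80, 11 had a p-value of at most 1e-06, and 0 reached 1e-10, the thresholds that the study used for weak and stringent peaks. The most significant had a −log10 p of 7.71, at Tubb3 in the K27M telencephalon library of culture 51. By comparison, 47.2% of all coding genes had a promoter peak of 1e-10 in at least 1 library, among the 69.4% with any promoter peak. Among 7 OPC markers the median of the mean percentile was 40.3, with a range that took in Sox10 at 5.71, Pdgfra at 18.4 and Gpr17 at 62.3, each called in all 13 libraries.

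Neurog2 was called in every library within a narrow range. Its fold was 2.61, 2.60 and 2.55 in control brainstem (cultures 51, 59, 61) and 2.71, 2.66 and 2.31 in K27M brainstem (41, 59, 61). In the telencephalon it was 2.53, 2.56 and 2.40 in control (51, 59, 61) and 2.46, 2.43, 2.44 and 2.49 in K27M (41, 51, 59, 61). The groups overlapped, and the lowest and the highest value both came from K27M brainstem. The mean percentile of Neurog2 was 18, and of the 9211 coding genes found in all 13 libraries 1.55% had a lower one. The peaks were wide all the same, at a median of 1824 bp, the 96.7th percentile of widths in their lists. Peaks of the widest 10% in each list had a median fold percentile of 40.3 to 60.7, above that of Neurog2.

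Tubb3 was found as regularly and lower still. In the brainstem its fold was 2.88, 2.29 and 2.24 in control (51, 59, 61) and 2.33, 2.46 and 2.36 in K27M (41, 59, 61). In the telencephalon it was 2.34, 2.37 and 2.74 in control (51, 59, 61) and 2.29, 2.57, 2.42 and 2.2 in K27M (41, 51, 59, 61). The groups overlapped again. The mean percentile was 13.2, below which lay 0.966% of the coding genes found in all 13 libraries. The peaks covered an annotated start in 13 of 13 libraries, against 9 of 13 for Neurog2, with a median width of 1499 bp. The merged peak, chr8:123409818-123412112, also lies over Mc1r, Gm20388 and the promoter window of Gm38092, so it cannot be given to Tubb3 alone.

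Other β-tubulin genes differed widely. Of the 7 others in the list, 5 had a promoter peak in all 13 libraries, Tubb5 in 12 and Tubb1 in none. Tubb4a had the highest mean percentile, 84.9, with a fold of 4.03 ± 0.79 (SD, n = 13). Tubb5, a broadly expressed tubulin, had 1.97, below Tubb3.

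Neurog2 and Tubb3 were the only ones of the 10 genes with a fold in all 13 libraries, and so the only ones in the main test of fold. That test (limma on log2 fold, centred on the median of each library, with culture number as a term) covered 11483 promoters. Brainstem and telencephalon differed by -0.03 ± 0.08 (log2, SE) at Neurog2 (adjusted p = 0.992) and by -0.06 ± 0.08 at Tubb3 (adjusted p = 0.978). K27M and control differed by -0.07 ± 0.08 at Neurog2 and by -0.05 ± 0.09 at Tubb3, with an adjusted p of 0.999 for both. The interaction of region and genotype was 0.12 ± 0.15 at Neurog2 and 0.17 ± 0.16 at Tubb3, both with an adjusted p of 1. Not one of these differences passed the test. The sign by region was the opposite for both genes when the folds were not centred, at 0.05 for Neurog2 and 0.02 for Tubb3, and on the percentile scale.

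Over all promoters the same fit called 2 by region (0.0174%) and 0 by genotype (0%). Within K27M it called 3 by region (0.0261%), and within control 0 by region (0%). By genotype it called 0 within brainstem (0%) and 0 within telencephalon (0%), and the interaction gave 0 (0%). At an unadjusted p below 0.05 it found 583 by region, 499 by genotype, 548 by region within control, 439 and 475 by genotype within brainstem and telencephalon and 433 for the interaction, and 430 by region within K27M. The promoters called by region were those of Irx5 and its neighbour Crnde, each lower in brainstem by a log2 difference of -0.46, and within K27M also Gm47870, higher in brainstem by 0.62. They were named after their values were seen.

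**Figure D2:**
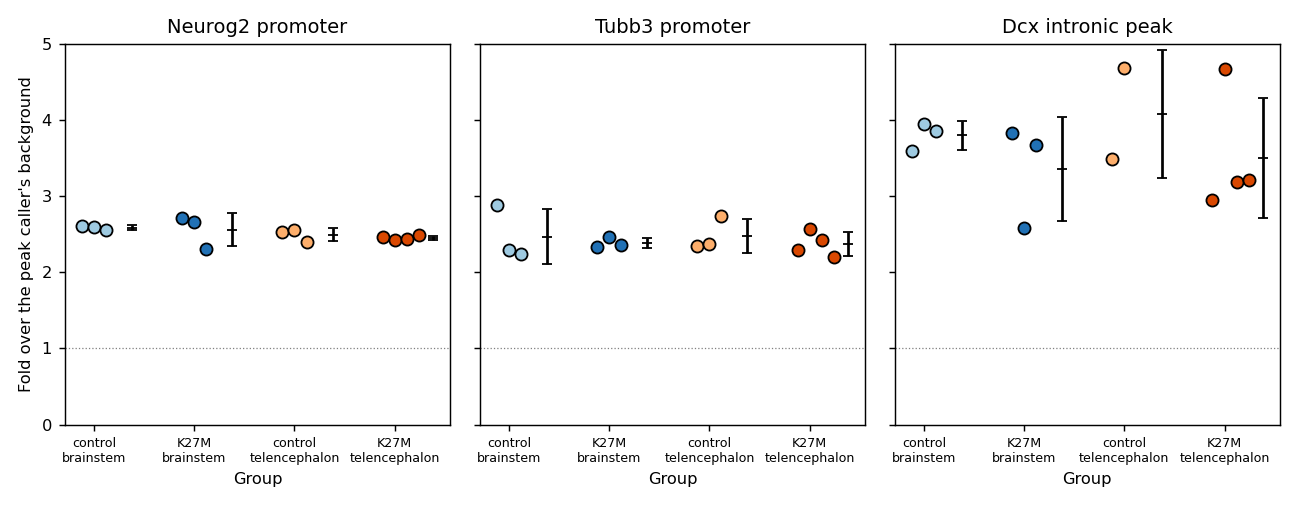
Fold of the Neurog2 promoter peak, the Tubb3 promoter peak and the Dcx intronic peak in the 4 groups. Points are libraries, the bar beside them is the mean ± SD of their group and the dotted line is a fold of 1. Neurog2 and Tubb3 stay between 2.2 and 2.88, while the Dcx intronic peak reaches 4.68.

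Neurog1, the other neurogenin, was found in 12 libraries, and the K27M telencephalon library of culture 59 was the one without it. Its fold ran from 2.19 to 3.34, a wider range than that of Neurog2, with 2.79 ± 0.376 (SD, n = 6) in control and 2.54 ± 0.26 (n = 6) in K27M libraries. By region it was 2.71 ± 0.242 in brainstem (n = 6) and 2.62 ± 0.43 in telencephalon (n = 6). These means differ by less than 1 SD. Its merged peak, chr13:56251305-56253563, covered the start in 12 of 12 libraries.

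Neurod1 was the gene whose promoter peaks followed genotype most closely. A peak was called in 7 of 7 K27M libraries and in 2 of 6 control libraries. Within brainstem it was 3 of 3 K27M against 1 of 3 control, and within telencephalon 4 of 4 against 1 of 3. The K27M folds were 2.35, 3.01 and 2.60 in brainstem (41, 59, 61) and 2.74, 2.80, 3.32 and 2.49 in telencephalon (41, 51, 59, 61). The control folds were 3.11 in brainstem and 2.31 in telencephalon, both of culture 51. In cultures 59 and 61 both K27M libraries had the peak and neither control library did. Where it was called, the mean fold was 2.76 ± 0.326 (SD, n = 7) in K27M and 2.71 ± 0.567 (n = 2) in control libraries, so that the genotypes overlapped in height.

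This difference did not pass the correction over all promoters. Two-sided Fisher's exact test gave p = 0.021 before and p = 1 after Benjamini-Hochberg adjustment over the 4389 promoters found in 3 to 10 libraries. Of those, 43 (0.98%) had an unadjusted p below 0.05 by genotype, and 0 (0%) passed the adjusted one. By region it was 58 (1.32%) and 0 (0%). With labels exchanged only within culture number, an exact test gave p = 0.0556 for Neurod1, and leaving out 1 library at a time moved the Fisher p from 0.0101 to 0.0606. It was below 0.05 in 6 of 13 such tests, those without a control library. It was 0.0606 without any 1 K27M library. Without the control telencephalon library of culture 59 it was 0.0455. When every list was cut to its 16879 most significant peaks, 1 of 7 K27M and 1 of 6 control libraries kept the peak. The cut kept peaks of −log10 p from 8.919 up in K27M brainstem 41 and from 9.149 up in K27M telencephalon 51. In control telencephalon 59 it removed none. The Neurod1 promoter peak reached at most 6.61, so those K27M libraries could not keep it, and the cut does not compare the genotypes. K27M lists held 39159 peaks on average against 35644 in control, and the part of list length in the result was not tested.

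The promoter peak of Neurod1, chr2:79456399-79457396, lies also in Cerkl and in its promoter window. A separate peak, chr2:79453913-79455189, lay over the exon downstream, 2200 bp from the start. It was called in 12 libraries, 7 of 7 K27M and 5 of 6 control. Its fold was 2.88 ± 0.232 (SD, n = 7) in K27M and 3.11 ± 0.577 (n = 5) in control libraries, at a mean percentile of 47.8. It overlaps Gm26755, a lincRNA gene, and Cerkl as well.

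**Figure D3:**
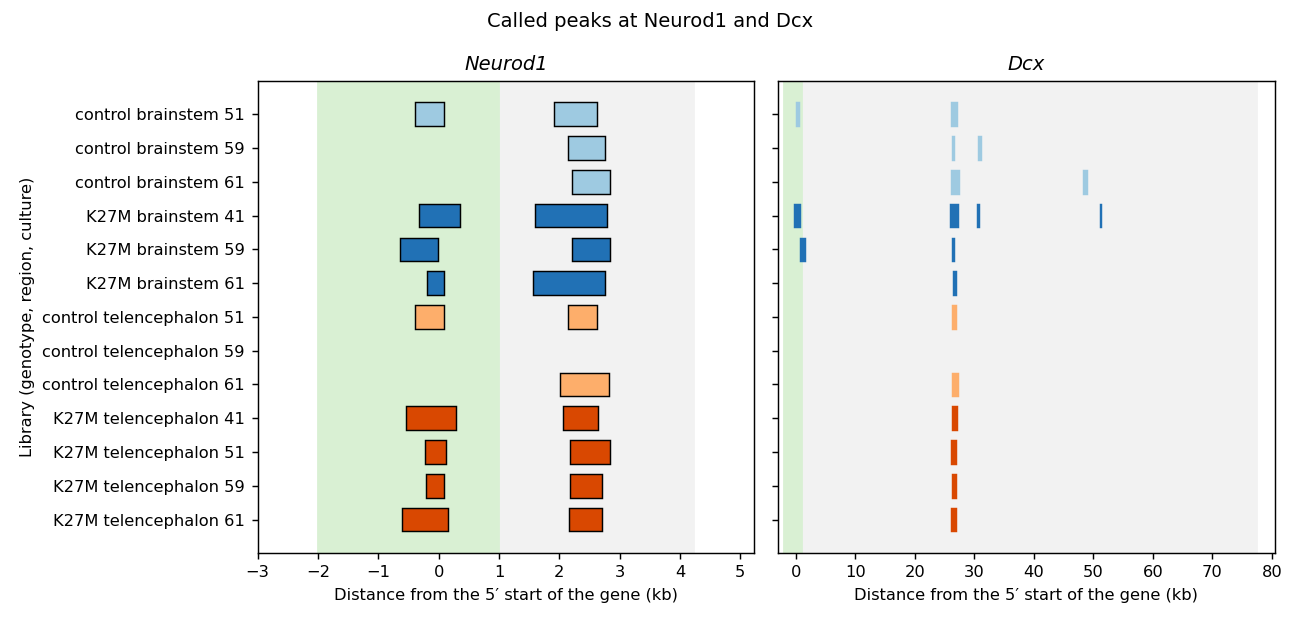
Called peaks at Neurod1 and Dcx by distance from the 5′ start of the gene, 1 row per library, coloured by group. Grey is the gene body and green the promoter window around the 5′ start. The promoter peak of Neurod1 is present in all 7 K27M rows and 2 of 6 control rows, and the Dcx peak 26677 bp inside the gene in 12 of 13 rows.

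Neurod2 and Neurod6, the later members of the family, had the fewest promoter peaks. The 1 promoter peak of Neurod2, in the K27M brainstem library of culture 41, had a fold of 2.2 at a percentile of 4.84 and reached the window from inside the gene. The merged peak there was found in 3 libraries, and in none did it cover the start. Neurod6 had 1 peak, in the K27M telencephalon library of culture 51, with a fold of 2.25 at a percentile of 6.19. In a comparison list of 10 other genes, of proneural bHLH and of zinc-finger factors, 4 had a promoter peak in all 13 libraries. Neurog3, Nhlh1 and Nhlh2 had one in none. Of its zinc-finger genes, Myt1 was found in 13 at a mean percentile of 95.7, and Insm1 in 5 at 12.6.

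The T-box genes were found intermittently. Tbr1 was called in 4 of the 6 brainstem libraries against 6 of the 7 from telencephalon, and in 4 of 6 controls against 6 of 7 with K27M. Its fold was 2.70 ± 0.199 (SD, n = 10), with a mean percentile of 34.3. The merged peak, chr2:61802859-61805836, covered an annotated start in 3 of 10 libraries, so most calls lay elsewhere in the windows. Eomes was called in 2 of the 6 from brainstem against 5 of the 7 from telencephalon, with folds of 2.65 and 2.42 in brainstem and 2.38, 2.52, 2.60, 2.47 and 2.33 in telencephalon. The 2 regions overlapped in height. The Eomes peak covered an annotated start in 5 of 7 libraries.

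Eomes was the only one of the 10 genes found in 5 to 8 libraries, the range fixed for the test of calling. Fisher's exact test gave p = 0.286 by region and p = 1 by genotype, and p = 1 after adjustment for both. Over the 1815 promoters tested, 0 passed by region (0%) and 0 by genotype (0%), with 39 (2.15%) and 22 (1.21%) at an unadjusted p below 0.05. Among merged peaks anywhere in the genome, promoters included, 0 of 11706 passed by region (0%) and 0 by genotype (0%), with 276 (2.36%) and 147 (1.26%) before adjustment. Of 13075 merged peaks in all libraries, limma called 3 by region (0.0229%) and 0 by genotype (0%), the latter with 586 at an unadjusted p below 0.05. None of the 3 was at one of the 10 genes.

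Dcx had a promoter peak in few libraries and an intronic peak with a higher mean percentile. Where called, the promoter peak had a mean percentile of 44.2, the highest for a promoter of the 10 genes. Of the 317 coding genes found in 3 libraries, 90.5% had a lower one. A promoter peak was called in 3 of 6 brainstem libraries, with folds of 3.05 (control, culture 51), 2.53 and 2.98 (K27M, cultures 41 and 59), and in 0 of 7 telencephalon libraries. These calls were not 1 shared peak. In 2 libraries it was chrX:143932595-143933704, which covered a start. In the K27M library of culture 59 it was chrX:143931822-143932571, centred 1115 bp inside the gene and over no start. Fisher's exact test by region gave p = 0.0699, and p = 1 after adjustment over the same 4389 promoters. For a promoter called in 3 of 13 libraries this unadjusted p is the smallest the test can give, so it could not fall below 0.05. Leaving out 1 library at a time gave a p from 0.0455 to 0.182, with 0.0455 without brainstem control 59, control 61 or K27M 61. Exchange within culture number gave p = 0.0833 by an exact test, and none of the 3 peaks remained in lists of equal length. The 3 further peaks in the gene body were each called in 1 or 2 libraries, all of brainstem. How many of all promoters or merged peaks found in so few libraries were called in brainstem alone was not counted. No regional pattern is read from these calls.

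The intronic peak, chrX:143905925-143907343, was called in 12 libraries, every one but the control telencephalon library of culture 59. Its fold was 3.59, 3.95 and 3.86 in control brainstem (51, 59, 61) and 3.83, 2.58 and 3.67 in K27M brainstem (41, 59, 61). In the telencephalon it was 3.49 and 4.68 in control (51, 61) and 2.95, 4.67, 3.19 and 3.21 in K27M (41, 51, 59, 61). The groups overlapped: 3.58 ± 0.507 (SD, n = 6) in brainstem against 3.70 ± 0.774 (n = 6) in telencephalon, and 3.91 ± 0.466 (n = 5) in control against 3.44 ± 0.684 (n = 7) in K27M. It was not in the main test of fold, since 1 library lacked it. In the fit without that library, which included it, 0 merged peaks were called by region and 0 by genotype. Its mean percentile, 74.9, was the highest of the 34 merged peaks at the 10 genes. It alone among them reached a p-value of 1e-10, in 3 libraries, and 9 of 13 libraries kept it in lists of equal length.

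The 12 libraries shared a stretch of 289 bases of this peak. The 300 bases around the middle of that stretch are given because the peak had the highest mean percentile at the 10 genes. They are on the strand of Dcx with E-boxes in capitals.
Dcx intron, chrX:143906685-143906984, minus strand: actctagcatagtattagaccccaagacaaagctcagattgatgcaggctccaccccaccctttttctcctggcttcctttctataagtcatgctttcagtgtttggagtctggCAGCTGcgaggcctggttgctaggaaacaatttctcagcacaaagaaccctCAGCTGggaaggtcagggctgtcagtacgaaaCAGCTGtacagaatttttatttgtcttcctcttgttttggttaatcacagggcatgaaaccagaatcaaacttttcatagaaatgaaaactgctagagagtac

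All 3 E-boxes of this stretch read CAGCTG, a sequence that is its own reverse complement. Over the central 300 bases of 99647 merged peaks, 19.9% held CAGCTG at least once and 0.355% held it 3 times or more. The count of 3 is that of this stretch, which was picked by its values, so the share describes and does not test. A match describes the letters and not a bound site.

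Rbfox3, the longest of the 10 genes, held 17 of their 34 merged peaks. Its promoter windows were found in 4 of 6 control and 7 of 7 K27M libraries, by 1 merged peak, chr11:118908336-118910020, with a fold of 2.49 ± 0.107 (SD, n = 11) and a mean percentile of 16.2. At Rbfox3 this peak covered an annotated start in 8 of 11 libraries. Of its 16 peaks outside the promoter windows, 2 were common. They were the intronic peaks chr11:118738661-118740359 and chr11:118792588-118795510, 172087 and 117548 bp from the 5′ start, found in 10 libraries (fold 2.53 ± 0.20) and in 11 (2.57 ± 0.178). Another pair was found in 6 and 5 libraries, chr11:118745061-118746057 and chr11:118511892-118512775. The former was present in 4 of 6 control and 2 of 7 K27M libraries (Fisher's exact p = 0.286, adjusted p = 1) and the latter in 3 and 2 (p = 0.592, adjusted p = 1). A pair of intronic peaks, chr11:118752282-118752881 (fold 2.83 ± 0.40) and chr11:118856660-118857494 (2.88 ± 0.40), was each called in 3 of 6 brainstem and 0 of 7 telencephalon libraries. Fisher's exact test gave p = 0.0699 for each, the smallest it can give for a peak found in 3 libraries, and p = 1 after adjustment. The share of all merged peaks in 3 libraries that were called in brainstem alone was not counted, so no regional pattern is read from this pair. Of the rest, 3 were found in 2 libraries and 7 in 1 library each.

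The other RNA-binding proteins of neurons were found more regularly, 7 of 8 in all 13 libraries. Elavl4, a stabiliser of neuronal mRNA, had the highest mean percentile of that list, 94.2. Of 10 genes of the neuronal cytoskeleton 5, and of 12 of the synapse and transmitters 5, were found in all 13. Stmn2 was found in 6, and Syp and Gad2 in 8 each, with Syp in 2 of 6 control and 6 of 7 K27M libraries (Fisher's exact p = 0.103, adjusted p = 1). Among REST and its corepressors 6 of 8 were found in all 13 and Ehmt2 in 7.

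**Figure D4:**
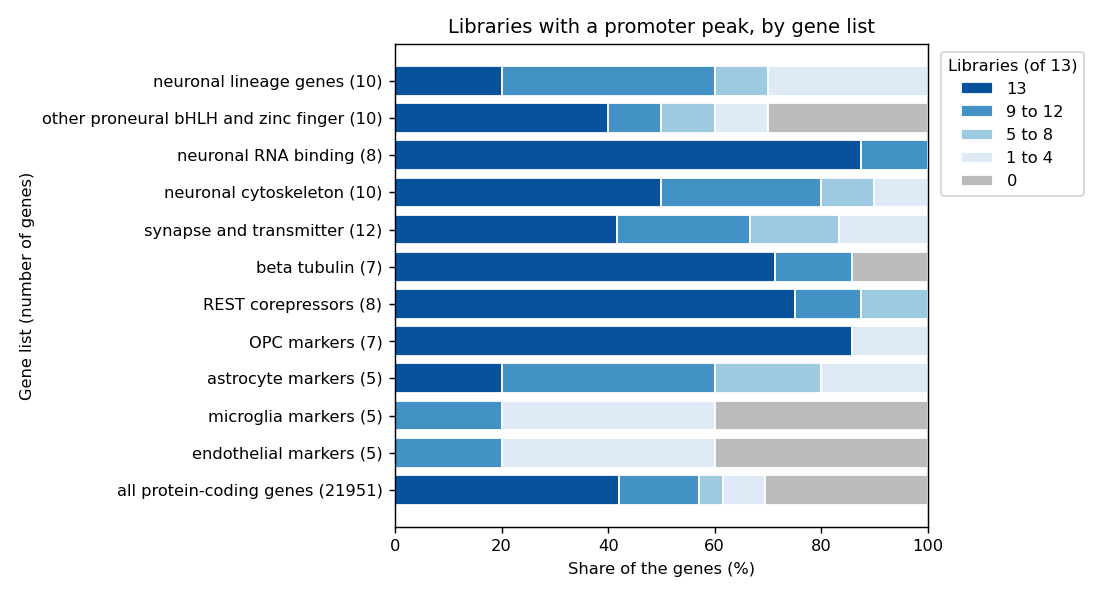
Share of the genes of each list whose promoter peak was called in 13, 9 to 12, 5 to 8, 1 to 4 or 0 of the 13 libraries. The neuronal lineage genes have 20% in the class of 13, against 42% of all coding genes in the lowest bar, and no grey segment.

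The number of the 10 genes with a promoter peak varied by library more than by group. It was 7, 3 and 6 in control brainstem (51, 59, 61), 9, 7 and 5 in K27M brainstem (41, 59, 61), 7, 3 and 6 in control telencephalon (51, 59, 61) and 6, 8, 6 and 7 in K27M telencephalon (41, 51, 59, 61). The mean was 6.86 ± 1.35 (SD, n = 7) in K27M and 5.33 ± 1.86 (n = 6) in control libraries, which overlapped. The share of all coding genes with a promoter peak was 59.6% in K27M and 57.1% in control libraries. By region it was 6.17 ± 2.04 in brainstem (n = 6) and 6.14 ± 1.57 in telencephalon (n = 7). Both libraries with 3 genes were controls of culture 59, with lists of 31153 and 16879 peaks. The 9 and the 8 came from lists of 48487 and 52164 peaks, although the list of 52466 peaks gave 6. In lists cut to equal length the number was 0 to 3, and the order by genotype was the opposite, with a mean of 0.429 in K27M and 1.33 in control libraries. The cut set an unlike floor in each library, a −log10 p of 3.441 in the uncut list of 16879 peaks and 9.149 in that of 52164. No promoter peak of the 10 genes exceeded 7.71. The lists of 48487, 52164 and 52466 peaks could therefore keep none, and this order is no comparison of the genotypes.

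**Figure D5:**
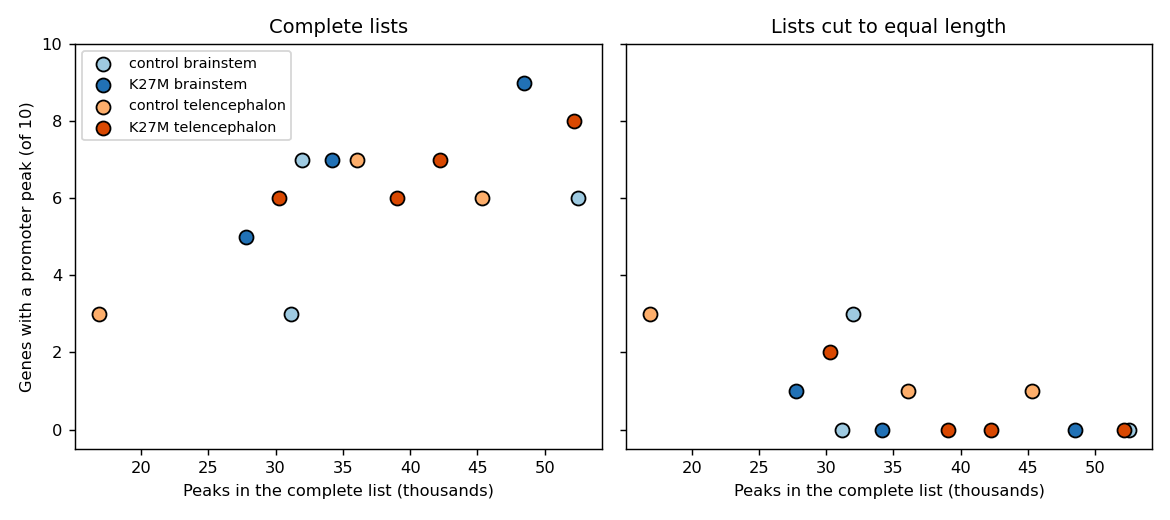
Number of the 10 genes with a promoter peak against the number of peaks in the complete list, 1 point per library. The left panel uses the complete lists, with 3 to 9 genes, and the right panel lists cut to 16879 peaks, with 0 to 3 genes.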

How the data were processed

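Peak lists were analysed for 13 ATAC-seq libraries, grouped by the region, genotype and culture number of their labels. The authors used BWA 0.7.17-r1188 for alignment to mm10 and called broad peaks per library with MACS2 2.2.7.1. The deposited columns used were the ratio (fold over background), the −log10 p-value, the −log10 q-value and a score, the last pair only to check the format. The lists give no counts, so depth is unknown, and the deposited values were not normalised between libraries. A missing peak means not called.

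Promoter windows came from GENCODE M21 (the study used another release), and overlap of 1 bp counted. Peaks overlapping between libraries were joined into merged peaks. Calling was compared with two-sided Fisher's exact test over features found in 5 to 8 libraries, and fold with limma 3.58.1 over features in all 13, centred on the median of each library, with culture number as a term, since the study accounted for matched cultures. Both had Benjamini-Hochberg adjustment at 0.05. Among 16 pairs of libraries with the same culture number, deviations from the group means correlated by 0.08 on average (-0.11 to 0.29). Both tests were checked on simulated data. Since separate animals per culture are not labelled, p-values do not measure the spread between animals. Those of limma measure the spread between libraries that is left after culture number is fitted. Fisher's exact test takes each library as independent, also those that share a culture number. The genes and lists were chosen with earlier results of these data known. All 10 genes are named. From each other list, those found in 5 to 8 libraries were named (at most 4), and otherwise the one with the highest mean percentile and the first with no peak, besides defining markers. All listed markers of microglia, endothelial cells and astrocytes are named. Sox10, Pdgfra, Myt1, Tubb5, the Dcx intronic peak, the Neurod1 exon peak and the Rbfox3 intronic peaks outside the range of 5 to 8 libraries were named after their values were seen. Alternatives were stricter, equal-length or differently overlapped peaks, other windows, transcripts and scalings, the culture term, and leaving out each library. The tests of Neurod1 and Dcx by culture, at equal length and with libraries left out were added after the data were seen.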

Additional observations from a re-analysis of the deposited data

Results flagged for a closer look

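The fold of the Rbfox3 promoter peak in the K27M telencephalon library of culture 41 was 2.35, below the other 3 libraries of that group, which lay between 2.49 and 2.51. The fold of the Dcx intronic peak in the K27M telencephalon library of culture 51 was 4.67, against 2.95 to 3.21 in the other 3. Both were picked out by Dixon's test at 95%, applied to this group of 4 alone, since the other groups had 3 libraries. It was run on 10 measures, and chance picks out about 1 in 20 of such groups. At Rbfox3 the control telencephalon library of culture 51 had a fold as low, 2.34. At Dcx the control telencephalon library of culture 61 had a fold as high, 4.68.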

How the results depend on the processing

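No call by Fisher's exact test was made under any alternative, for promoters or merged peaks, by region or genotype, the replicate block and each left-out library included. The replicate block allowed 216 arrangements by region and 108 by genotype. A call there would have needed many features at its smallest possible p, so its lack of calls says little. By limma, promoters called by region went from 2 to 4 without the replicate block and with quantile normalisation, to 1 with the narrow window, and to 0 uncentred or with peaks of p at most 1e-10. Those within K27M went from 3 to 5 without the replicate block, and to 0 uncentred, on percentiles or at 1e-10. Merged peaks called by region went from 3 to 0 uncentred, on percentiles or at 1e-10, and to 1 at equal length. Leaving out 1 library gave 2 to 6 promoters by region, 0 to 3 within K27M, 0 to 1 by genotype and within brainstem, and for merged peaks 0 to 4 by region and 0 to 2 by genotype. Neurog2 and Tubb3 were not called wherever they were tested. Neither was tested at equal length or 1e-10, nor Neurog2 in the narrow window, since some libraries then lacked the peak.

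The mean number of the 10 genes per library, 6.15, fell to 0.846 at equal length and 0 at 1e-10, and was 5.92 to 6.42 with 1 library left out. The number found in all 13, 2, was 0 at equal length or 1e-10 and 1 in the narrow window; it was 2 to 3 with 1 library left out. Called peaks per library, 13.1, fell to 1.85 and 0.231. The median percentile at 1e-10 could not be computed, since no promoter peak remained. By region Neurog2 changed sign to 0.05 and Tubb3 to 0.02 uncentred, and to 1.04 and 0.75 percentile points; uncentred, the median over all promoters moved by up to 0.12 (log2, region within control). With 1 library left out, Neurog2 ran from -0.10 to 0.02 by region and -0.14 to 0.02 by genotype, and Tubb3 from -0.17 to 0 and -0.13 to 0.02. For Neurod1, K27M minus control in the share of libraries was 66.7 percentage points, also with the replicate block, and -2.38 at equal length. The cut to equal length took the weaker peaks of longer lists and none of the shortest. Values at equal length therefore do not compare the groups. The part of list length in these changes was not tested.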
